A study of Bos grunniens x Bos taurus and Bos grunniens with 6 samples.

Results

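The genes described here are 7 enzymes of cholesterol synthesis, HMGCS1, IDI1, FDFT1, SQLE, LSS, CYP51A1 and DHCR7. They were taken by gene symbol from a deposited table of 18918 genes, in which each symbol stood on 1 gene, so that the set held 7 genes. None of the 7 takes up cholesterol, and the genes of uptake come from a separate list. The study compared testis tissue of 3 cattle-yak (libraries TES5, TES6 and TES7) and 3 yak (Yak8, Yak9 and Yak10) by RNA-seq, with 1 library for each animal. The cattle-yak were F1 males of a Jersey cattle sire and a Gannan yak dam, and the yak were Gannan males. All were 4 years old and none had received a treatment. The cattle-yak came from Xiahe County and were castrated, while the yak came from Linxia County and, per the methods, were euthanized (the labels give castration for both), so that place and collection cannot be told apart from the cross. Reads of both groups were aligned to the yak assembly LU_Bosgru_v3.0, although a cattle-yak also carries a Jersey genome, and the part of this in the values was not tested.

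Cells build cholesterol from acetyl-CoA in the mevalonate pathway, which yields the isoprenoid farnesyl diphosphate, and then in the sterol pathway, which joins farnesyl units into squalene, closes the rings to lanosterol and trims lanosterol to cholesterol. Most of these enzymes are targets of the transcription factor SREBF2, which is released from the endoplasmic reticulum when sterols are low. In the testis, Leydig cells turn cholesterol into testosterone, Sertoli cells take it up and supply germ cells, and germ cells make part of the pathway themselves. Sterol intermediates that follow the step of CYP51A1 are known from testis as meiosis-activating sterols.

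The tissue was testis by its defining markers, but its cell types differed between the groups. The summed level of 6 genes that mark elongating spermatids was 9060 to 11018 FPKM (fragments per kilobase of gene, scaled to the depth of the library) in yak and 18.3 to 85.9 FPKM in cattle-yak. That of 6 genes of round spermatids was 886 to 923 FPKM against 16.6 to 72.9 FPKM, with TXNDC2 at 0 in TES6 and TES7. Conversely, 12 Sertoli genes summed to 2702 to 2857 FPKM in cattle-yak and 538 to 618 FPKM in yak, and 8 Leydig genes to 10468 to 12471 against 3352 to 4889 FPKM. Both sets were higher in each cattle-yak library, and none of their genes was at 0. Most of the Leydig sum was INSL3, with 10027 to 12067 FPKM in cattle-yak and 3282 to 4769 in yak. The Leydig genes also include STAR and CYP11A1, which are described below. The 8 Leydig genes carry 6 symbols because CYP17A1 stands on several genes. The 12 Sertoli genes carry 11 symbols, with CLU repeated, and the 6 of round spermatids carry 5, with CREM repeated. Of 8 spermatocyte genes, PIWIL1 and CCNA1 were called lower (means of 15.7 and 6.85 FPKM in cattle-yak, 148 and 75.3 in yak), SYCP3 was called higher (1.10, and 0.49 without a call after median-of-ratios scaling), and 5 were not called. In bulk tissue, fewer cells of a type and less RNA per cell cannot be told apart, and the part of these shifts in the results below was not tested. The median log2 (foldchange) of all 15042 genes tested was 0.51, so an unscaled value is read against 0.51 rather than 0. After median-of-ratios scaling of the libraries this median was 0.01. The values rest on 11175100 to 11834987 fragments per library in cattle-yak, and on 12991641 to 13136129 in the yak.

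The 7 enzymes did not move together. LSS and DHCR7 were upregulated in cattle-yak, FDFT1 and CYP51A1 were downregulated, and HMGCS1, IDI1 and SQLE did not pass both thresholds, set in limma at 0.05 for the p adjusted by Benjamini-Hochberg and at 1 for the log2 (foldchange) in either direction. All 7 passed the filter of a mean of 0.5 FPKM. Of all genes tested, 33.4% were called higher and 20.8% lower, so 2 of 7 in each direction is near the background. The groups did not overlap for 6 of the 7 enzymes, against 84.1% of all genes tested. The log2 (foldchange) ran from −2.19 to 2.14, with a median of 0.82. After median-of-ratios scaling it ran from −2.78 to 1.60, with 2 enzymes called higher and 3 lower, where 17.7% and 27.7% of all genes were called. When each library was centred on the Sertoli genes, all 7 lay below 0, from −4.35 for CYP51A1 to −0.02 for LSS. Their median was then −1.35, beside −1.66 for all genes tested. Of the 7, 5 were called lower, beside 10812 of all 15042 genes.

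**Figure D1:**
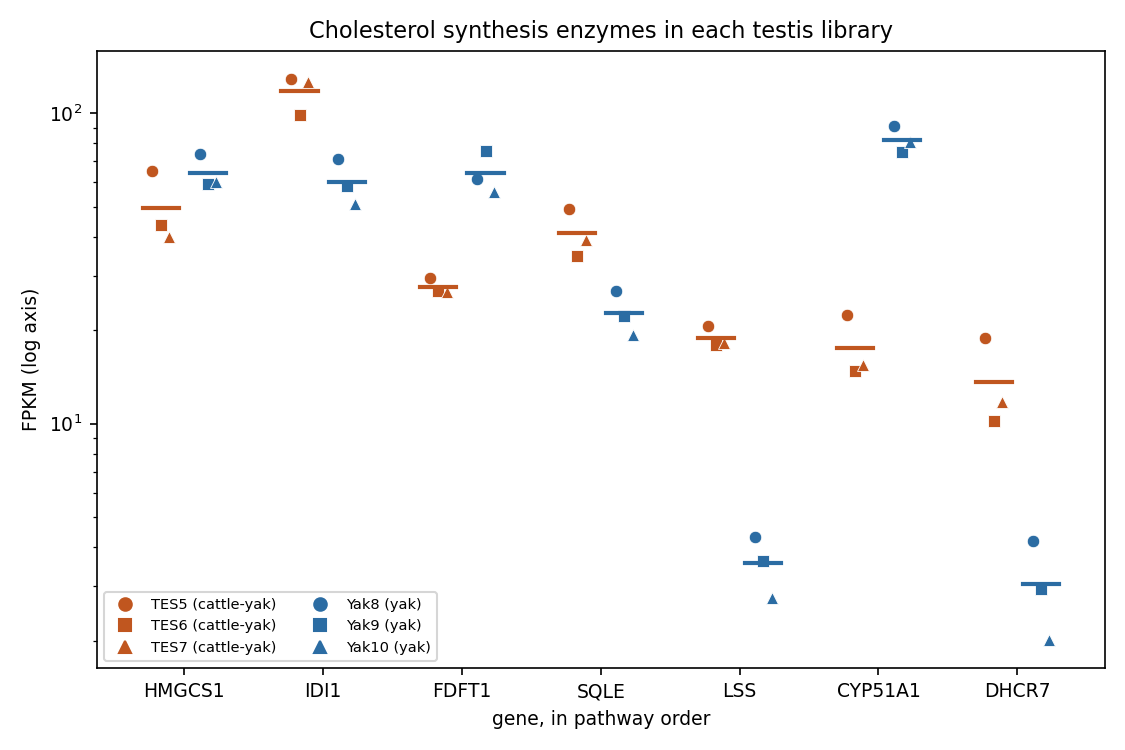
FPKM (log axis) of the 7 enzymes in pathway order, with a point for each library and a line at each group mean (n = 3). LSS and DHCR7 lie higher in the cattle-yak libraries, FDFT1 and CYP51A1 lie lower, and only HMGCS1 overlaps between the groups. When the libraries are centred on Sertoli genes, LSS and DHCR7 too lie slightly below 0 (−0.02 and −0.32), beside a median of −1.66 for all genes.

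HMGCS1 (ENSBGRG00000015970) encodes the synthase that forms HMG-CoA early in the mevalonate pathway. It had 65.4 FPKM in TES5, 43.8 in TES6 and 39.8 in TES7, and 73.7 in Yak8, 59.3 in Yak9 and 60.1 in Yak10. TES5 lay inside the range of the yak, and the other two cattle-yak below it. The group means were 49.7 ± 13.7 FPKM in cattle-yak and 64.4 ± 8.11 in yak (n = 3, SD). The log2 (foldchange) was −0.39 (standard error, SE, 0.19), which did not pass the test (limma adjusted p = 0.081). After median-of-ratios scaling it was −1.001 and called lower (limma adjusted p = 0.0015).

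IDI1 (ENSBGRG00000004993) encodes the isomerase that makes dimethylallyl diphosphate, from which farnesyl diphosphate is built. It was the most abundant of the 7 in cattle-yak, with 129.2 FPKM in TES5, 98.9 in TES6 and 125.8 in TES7. In yak it had 71.0 FPKM in Yak8, 58.1 in Yak9 and 51.2 in Yak10. Each cattle-yak library lay above each yak library, and the mean was 1.96 times higher. The log2 (foldchange) of 0.96 (SE 0.15, limma adjusted p = 0.00041) fell just short of 1. It passed 1 without TES6 (1.08), without Yak8 (1.09) and with quantile normalization (1.12), and was 0.35 after median-of-ratios scaling.

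FDFT1 (ENSBGRG00000002753), squalene synthase, commits farnesyl diphosphate to sterols. Its level was 29.5 FPKM in TES5, 26.8 in TES6 and 26.6 in TES7, against 61.5 in Yak8, 75.7 in Yak9 and 55.8 in Yak10. The lowest yak library thus lay well above the highest cattle-yak library. The means, 27.6 ± 1.63 and 64.3 ± 10.3 FPKM (n = 3, SD), were 2.33 times apart, with a log2 (foldchange) of −1.18 (SE 0.13, limma adjusted p = 4.6e-05). It stayed past −1 without any of the animals in turn (−1.28 to −1.06) and was −1.78 after median-of-ratios scaling.

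SQLE (ENSBGRG00000012556), the squalene epoxidase that uses oxygen for the first time in the pathway, follows FDFT1 directly and did not fall with it. It had 49.3 FPKM in TES5, 34.7 in TES6 and 39.1 in TES7, and 26.8 in Yak8, 22.2 in Yak9 and 19.4 in Yak10. The groups did not overlap, with means of 41.0 ± 7.49 and 22.8 ± 3.75 FPKM (n = 3, SD). Its log2 (foldchange) of 0.82 (SE 0.16, limma adjusted p = 0.0017) was under the threshold of 1, and median-of-ratios scaling left 0.22. Over the 6 libraries SQLE and IDI1 had the most similar pattern of any pair among the 7, with a root mean square distance of 0.11 between their centred log2 (FPKM + 1) values.

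LSS (ENSBGRG00000001100), lanosterol synthase, closes the sterol rings. It had 20.6 FPKM in TES5, 18.0 in TES6 and 18.2 in TES7, but 4.32 in Yak8, 3.61 in Yak9 and 2.74 in Yak10. These values rest on 514 to 625 fragments in a cattle-yak library and on 91 to 145 in a yak library. The mean rose 5.33-fold, the largest rise among the 7 enzymes, with a log2 (foldchange) of 2.14 (SE 0.16, limma adjusted p = 5.4e-06). It was 1.60 after median-of-ratios scaling and −0.02 (limma adjusted p = 0.9) when centred on the Sertoli genes, whose own median log2 (foldchange) was 2.23.

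CYP51A1 (ENSBGRG00000019342), lanosterol 14-alpha demethylase, acts on the product of LSS and changed in the opposite direction. The yak libraries held 90.9 FPKM in Yak8, 74.9 in Yak9 and 80.8 in Yak10, the highest mean of the 7 enzymes in yak. In Yak9 alone, FDFT1 was slightly higher, at 75.7 FPKM. The cattle-yak libraries held 22.3 FPKM in TES5, 14.8 in TES6 and 15.5 in TES7. The mean was 4.69 times lower in cattle-yak (17.5 ± 4.18 against 82.2 ± 8.11 FPKM, n = 3, SD), with a log2 (foldchange) of −2.19 (SE 0.16, limma adjusted p = 5.4e-06). The call as lower held under each alternative in which it was recomputed, Sertoli centring and the omission of single animals included. The round spermatid genes moved the same way, with a median log2 (foldchange) of −4.28, and the spermatocyte genes moved both ways, with a median of −0.14.

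DHCR7 (ENSBGRG00000017928) encodes the reductase of the last step, which turns 7-dehydrocholesterol into cholesterol. It had the fewest fragments of the 7, with 157 to 308 in a cattle-yak and 36 to 76 in a yak library. Its level was 18.9 FPKM in TES5, 10.2 in TES6 and 11.8 in TES7, against 4.20 in Yak8, 2.94 in Yak9 and 2.01 in Yak10. The groups did not overlap although both were spread widely, with coefficients of variation of 34.0% and 36.0%. The log2 (foldchange) was 1.84 (SE 0.27, limma adjusted p = 0.00026), that is 4.47 times more in the mean, and 1.60 to 2.04 with single animals left out. It was −0.32 (limma adjusted p = 0.27) when centred on the Sertoli genes.

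The summed level of the 7 enzymes overlapped between the groups, while the share of each of the 7 in it did not. As single genes 6 of the 7 did not overlap either, against 84.1% of all genes tested. Shares of the same sum also depend on each other, so their separation is given as a description only. The sum was 335 FPKM in TES5, 247 in TES6 and 277 in TES7, and 332 in Yak8, 297 in Yak9 and 272 in Yak10. CYP51A1 made up 27.4% ± 2.25 of it in yak and 6.07% ± 0.54 in cattle-yak (n = 3, SD). FDFT1 made up 21.5% ± 3.62 and 9.75% ± 1.03. IDI1 had the reverse, 19.9% ± 1.30 in yak and 41.3% ± 3.64 in cattle-yak, and SQLE had 7.55% ± 0.47 and 14.3% ± 0.36. HMGCS1 held 21.4% ± 1.24 in yak and 17.2% ± 2.59 in cattle-yak, and its groups nearly touched, with 19.5% in TES5 and 19.98% in Yak9.

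**Figure D2:**
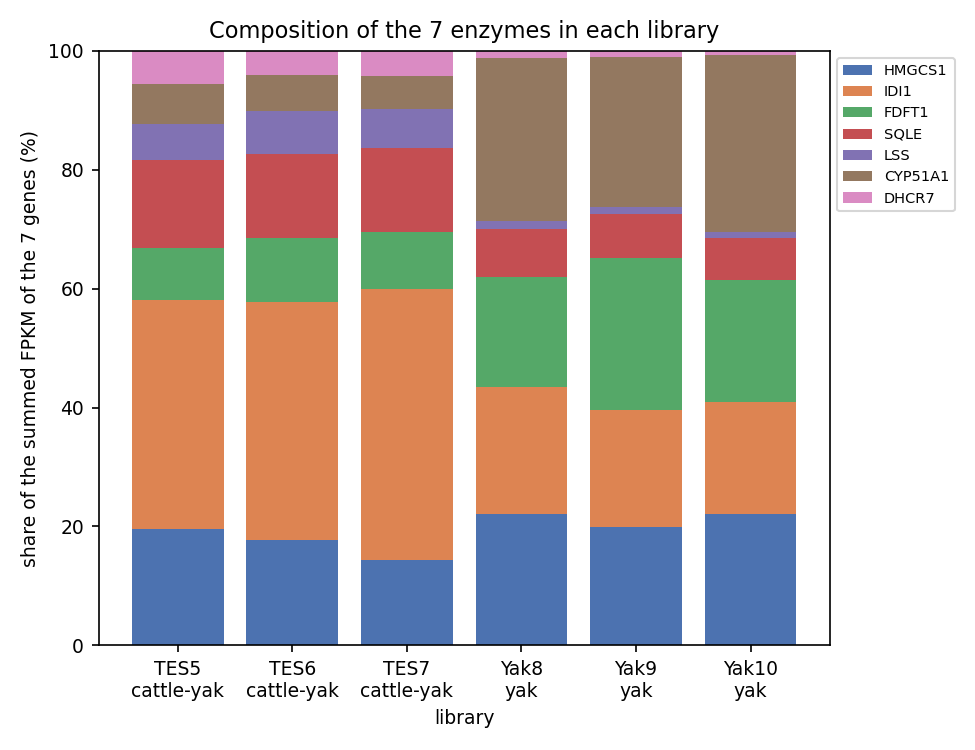
Share (%) of the summed FPKM of the 7 enzymes taken by each, in each library. CYP51A1 and FDFT1 fill 27.4% and 21.5% of the yak bars on average, and IDI1 fills 41.3% of the cattle-yak bars.

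Ordered by mean FPKM, the yak had CYP51A1 first, then HMGCS1, FDFT1 and IDI1, whose neighbouring ranges overlapped, then SQLE, and LSS with DHCR7 last. The cattle-yak had IDI1 first, then HMGCS1 and SQLE with overlapping ranges, then FDFT1. The last places in cattle-yak went to LSS, CYP51A1 and DHCR7, each overlapping with the next. By mean, CYP51A1 thus stood in the first place in yak and in the sixth in cattle-yak. Its range in yak (74.9 to 90.9 FPKM) overlapped that of FDFT1 (55.8 to 75.7 FPKM), which was the higher of these in Yak9.

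The other enzymes of the pathway, a list of 13 genes, were mostly higher. Of these, 9 were called higher and 1 lower (33.4% and 20.8% of all genes), with a median log2 (foldchange) of 1.58, and with the 7 enzymes above 11 of 20 were higher, 3 lower and 6 not called. The lower gene was FDPS, which makes farnesyl diphosphate and had 24.5 to 37.6 FPKM in cattle-yak and 58.3 to 66.3 in yak, a log2 (foldchange) of −1.09 (limma adjusted p = 0.00028). Without TES6 the value for FDPS was −0.97 and no longer past the threshold.

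Those of the 20 enzymes that work on lanosterol and later sterols were higher, apart from CYP51A1, LBR and ERG28. MSMO1, the sterol C4-methyl oxidase, had 169.3 FPKM in TES5, 132.6 in TES6 and 150.2 in TES7, and 39.8 in Yak8, 26.3 in Yak9 and 24.0 in Yak10. Its log2 (foldchange) of 2.32 (limma adjusted p = 8.5e-06) was the largest of the 20. EBP, the sterol isomerase, had a log2 (foldchange) of 2.11, SC5D, the desaturase before DHCR7, 2.03, and TM7SF2, a sterol C14 reductase that acts after CYP51A1, 1.89. LBR, a lamin B receptor with the same reductase activity as TM7SF2, had −0.26 (limma adjusted p = 0.12) and ERG28 0.46 (limma adjusted p = 0.078). After median-of-ratios scaling the 20 enzymes had 9 higher and 4 lower calls (17.7% and 27.7% of all genes), with a median of 0.70. Centred on the Sertoli genes, 19 of them lay below 0, with a median of −0.88 beside −1.66 for all genes.

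**Figure D3:**
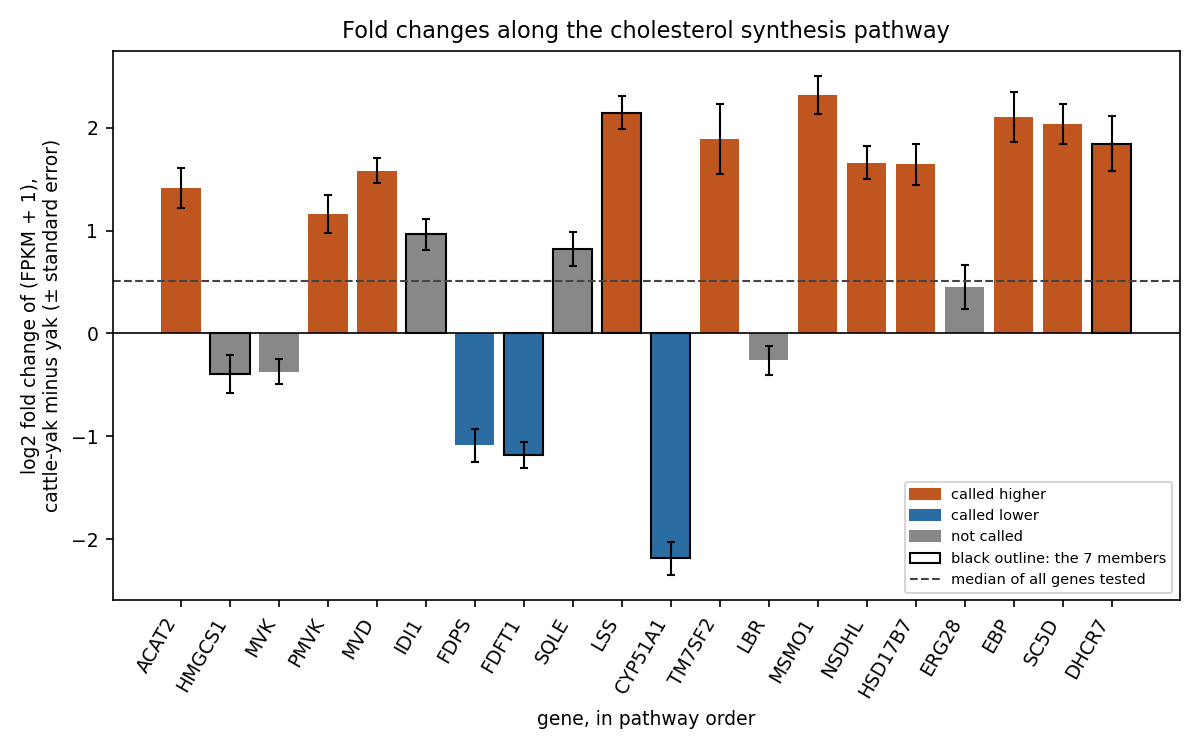
Log2 (foldchange) of FPKM + 1, cattle-yak minus yak, for the 20 enzymes in the approximate order of the pathway, with the standard error from limma. FDPS, FDFT1 and CYP51A1 were called lower. Called higher were TM7SF2, MSMO1, NSDHL, HSD17B7, EBP, SC5D and DHCR7, and of the earlier steps ACAT2 (1.41), PMVK (1.16), MVD (1.58) and LSS (2.14). After median-of-ratios scaling ACAT2 (0.81) and PMVK (0.58) were not called. The dashed line is the median of all genes (0.51). With Sertoli centring 19 of the 20 lie below 0, as does the median of all genes (−1.66).

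Ratios between neighbouring steps within a library are not altered by a single scaling factor per library. For 10 pairs of neighbouring steps with at least 1 of the 7 enzymes, set by pathway order after the values had been seen, the ratios are given as a description without a test. The ratio of CYP51A1 to LSS was 1.08 in TES5, 0.82 in TES6 and 0.85 in TES7, and 21.1 in Yak8, 20.8 in Yak9 and 29.5 in Yak10. Per length, CYP51A1 thus far exceeded LSS in yak, while both were close to each other in cattle-yak. The ratio of SQLE to FDFT1 was 1.48 ± 0.19 in cattle-yak and 0.36 ± 0.07 in yak (n = 3, SD), and that of FDPS to IDI1 0.25 ± 0.04 and 1.06 ± 0.11. TM7SF2 stood at 1.51 ± 0.31 of CYP51A1 in cattle-yak and at 0.082 ± 0.040 in yak. The shift was smaller for LBR, which has the same reductase activity, at 2.01 ± 0.59 and 0.50 ± 0.08.

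The 2 ratios that overlapped between the groups paired enzymes that moved together, FDFT1 to FDPS (0.96 ± 0.16 and 1.03 ± 0.15) and DHCR7 to SC5D (0.51 ± 0.18 and 0.54 ± 0.21). For the other 8 ratios the groups lay apart. Single genes did so in 84.1% of all genes tested, and the share for ratios of other gene pairs was not computed.

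**Figure D4:**
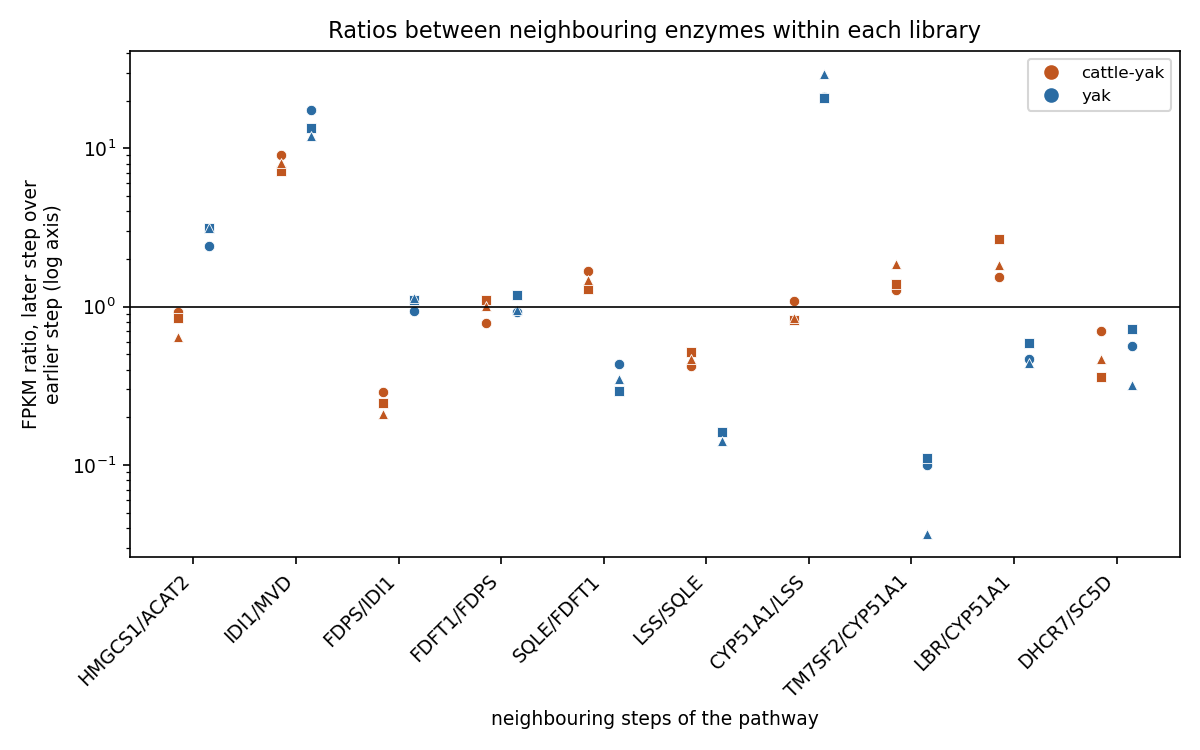
FPKM of the later enzyme over that of the earlier one (log axis) for 10 pairs of neighbouring steps, with a circle, square or triangle for each library of a group. The groups lie apart in 8 pairs, most widely for CYP51A1/LSS (mean 0.92 in cattle-yak and 23.8 in yak), and overlap for FDFT1/FDPS and DHCR7/SC5D. For single genes the groups lie apart in 84.1% of all genes tested.

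Among 12 genes of sterol sensing, 4 were called higher, near the 33.4% of all genes, and 1 lower, beside 20.8%. Their median log2 (foldchange) was 0.78. SREBF2, the main activator of the pathway, had 31.8 FPKM in TES5, 33.3 in TES6 and 30.8 in TES7, and 37.0 in Yak8, 29.2 in Yak9 and 32.7 in Yak10. The groups overlapped, and the log2 (foldchange) of −0.04 (limma adjusted p = 0.77) turned to 0.05 without Yak8. It was −0.64 after median-of-ratios scaling (limma adjusted p = 0.00071, not past the fold threshold) and −2.20, called lower, with Sertoli centring. SREBF1, the family member linked to fatty acid synthesis, had 41.3 to 58.0 FPKM in cattle-yak and 9.19 to 9.68 in yak, a log2 (foldchange) of 2.22 (limma adjusted p = 2.3e-06). The proteases that cut these factors free were also higher, MBTPS1 by 1.50 and MBTPS2 by 1.95.

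The retention proteins INSIG1 and INSIG2, which hold SREBF2 back when sterols are plentiful, had log2 (foldchange) values of −0.34 (limma adjusted p = 0.097) and 0.74 (limma adjusted p = 0.0037), and neither was called. SCAP, the sterol sensor that escorts SREBF2, had 75.9 to 93.4 FPKM against 41.3 to 46.3, a log2 (foldchange) of 0.92 that passed 1 only with quantile normalization (1.03). RNF139, a ubiquitin ligase of the endoplasmic reticulum, was the gene called lower, with 50.1 to 51.2 FPKM in cattle-yak and 137.1 to 163.9 in yak. The value for NR1H3 (1.01) lay just above the threshold. After median-of-ratios scaling 2 of these genes were called higher, MBTPS2 and SREBF1, and 1 lower, RNF139 (17.7% and 27.7% of all genes).

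Of the 11 genes of lipoprotein uptake and lysosomal release, 7 were called higher and 1 lower (33.4% and 20.8% of all genes). Their median log2 (foldchange) was 1.71, and 1.16 after median-of-ratios scaling, where 6 were higher and 1 lower (17.7% and 27.7% of all genes). SCARB1, the receptor that takes cholesterol esters from high density lipoprotein, had 69.3 FPKM in TES5, 66.2 in TES6 and 60.1 in TES7, and 16.1 in Yak8, 12.1 in Yak9 and 6.11 in Yak10, which gave the largest log2 (foldchange) of the list, 2.50 (limma adjusted p = 6e-05).

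NPC2, which carries cholesterol out of lysosomes, had a log2 (foldchange) of 2.15, while that of its partner NPC1 was 0.11 (limma adjusted p = 0.54). STARD4, a sterol carrier of the cytosol, also had 2.15, on a gene model of 168 bases. VLDLR was the lower gene, with 1.67 to 2.37 FPKM in cattle-yak and 12.5 to 14.2 in yak and a log2 (foldchange) of −2.32 (limma adjusted p = 2.5e-06). Centred on the Sertoli genes, NPC2 was at −0.02 and SCARB1 at 0.33, and none of the list was called higher, beside 38 of all 15042 genes tested. The median log2 (foldchange) was 2.23 for the Sertoli genes, 2.01 for genes of peritubular myoid cells, 1.90 for the Leydig genes and 1.83 for genes of spermatogonia. It was 1.16 for macrophage and 0.99 for endothelial genes. The part of these cell types in the uptake values was not tested.

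Of 9 tested genes of the non-sterol branches of the mevalonate pathway, 3 were called higher, near the 33.4% of all genes. A further 1 was called lower, beside 20.8%, and the median was 0.43. After median-of-ratios scaling GGPS1 (0.68) and FNTB (0.67) lost the call. This left 1 higher and 1 lower (17.7% and 27.7% of all genes) and a median of −0.18. GGPS1, which lengthens farnesyl to geranylgeranyl diphosphate, had 41.2 to 46.8 FPKM in cattle-yak and 17.0 to 18.6 in yak, with a log2 (foldchange) of 1.27. COQ2, of ubiquinone synthesis, had the largest value of the list, 2.46. FNTA, the shared alpha subunit of the prenyl transferases, had 92.3 to 114.8 FPKM against 336 to 363, a log2 (foldchange) of −1.77, whereas its partner FNTB had 1.18. A second gene with the symbol FNTA, under 1 FPKM in each library, was not tested, and the split of reads between these copies is uncertain.

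Genes that handle cholesterol after synthesis or uptake were mostly higher or not called. LIPE, the hormone-sensitive lipase that frees cholesterol from its esters, had 5.49 FPKM in TES5, 2.62 in TES6 and 3.16 in TES7, but 111.3 in Yak8, 115.8 in Yak9 and 133.6 in Yak10. This log2 (foldchange) of −4.71 (limma adjusted p = 4.6e-07) was the largest of any cholesterol gene examined here. In the same list of 8 tested genes, APOA1 (2.13), APOE (1.26) and ABCA1 (1.003) were called higher, the last no longer without TES6, TES7 or Yak9 (0.83, 0.97 and 0.89). These 3 of 8 stand beside 33.4% of all genes, and after median-of-ratios scaling APOE (0.64) and ABCA1 (0.47) lost the call. SOAT1, which esterifies cholesterol, had 0.57 (limma adjusted p = 0.069), and SOAT2 was listed at 0 in TES7 and in each yak library, with at most 0.114 FPKM in the others. The lipid droplet protein PLIN2 had 114 to 126 FPKM against 100.03 to 118.5, with overlap.

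STAR, which brings cholesterol into mitochondria, had a log2 (foldchange) of 2.77, and CYP11A1, which cleaves its side chain there, 2.05. With TSPO (1.76) and FDXR (1.13), 4 of the 5 genes of this entry into steroid synthesis were called higher and none lower. CYP27A1 and CH25H, which form oxysterols, had 1.86 and 1.44, as 2 of 4 tested genes of that list. For comparison, 4 of 7 genes of fatty acid synthesis were called higher and none lower, namely FASN (1.83), ACLY (1.77), FADS2 (1.74) and ACACA (1.11), with a list median of 1.11. In all these lists the share of all genes called higher is 33.4%. After median-of-ratios scaling FDXR (0.56), CH25H (0.95) and ACACA (0.53) lost the call, as did FDXR (0.85) and ACACA (0.90) with quantile normalization.

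**Figure D5:**
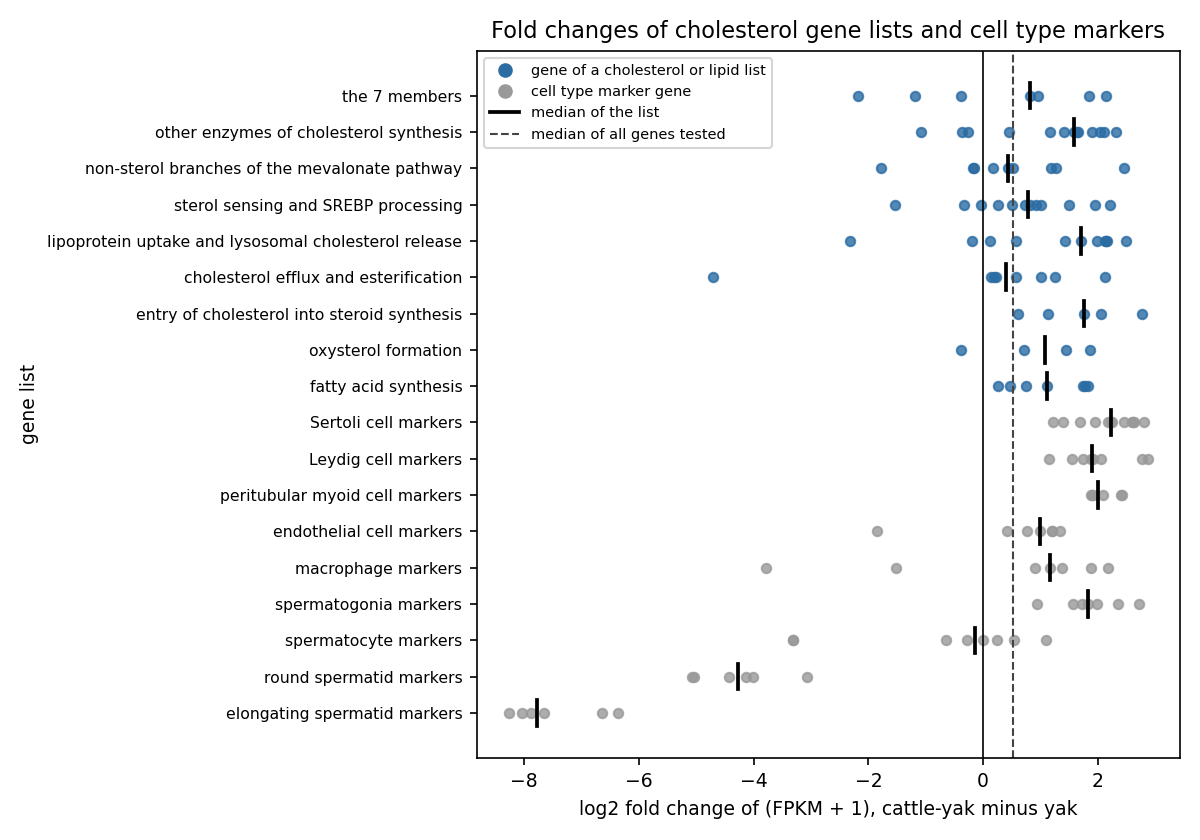
Log2 (foldchange) of FPKM + 1, cattle-yak minus yak, of each tested gene (points) by list, with the list median as a bar and the median of all genes (0.51) dashed. Cholesterol synthesis spreads on both sides of 0, and spermatid markers lie at −8.27 to −3.07. Uptake genes have a median of 1.71, beside 2.23 for Sertoli, 2.01 for myoid, 1.90 for Leydig and 1.83 for spermatogonia markers. Macrophage and endothelial markers have 1.16 and 0.99. Centred on the Sertoli genes, the medians of all 9 cholesterol and lipid lists lie below 0, as does that of all genes (−1.66).

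Within each group 1 animal led in most of these enzymes. TES5 had the highest value of the 3 cattle-yak for all 7 enzymes, whereas it was the highest for 34.9% of all genes tested. Among the yak, Yak8 was the highest for 6 of the 7, the exception being FDFT1, and for 32.7% of all genes. Of the 13 other enzymes, 7 were highest in TES5 and 9 in Yak8. Among the 11 genes of uptake other animals led, with 7 highest in TES6 and 6 in Yak9, against 37.8% and 27.2% of all genes. TES5 also held the most signal of the spermatid genes among the cattle-yak, 85.9 FPKM for the elongating list against 34.1 and 18.3, and the part of this was not tested. Without TES5 the numbers of called enzymes were the same, 2 higher and 2 lower. Coefficients of variation between animals were 5.91% to 34.0% in the cattle-yak and 9.87% to 36.0% in the yak, beside 2.35% to 6.78% and 1.45% to 13.5% from the number of fragments alone.

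For each enzyme, the 2 genes with the most similar centred log2 (FPKM + 1) values over the 6 libraries were sought. The search covered the genes tested that had a symbol, with the 7 enzymes themselves left out. Those nearest to CYP51A1 were ENTPD1 and ATXN3, at root mean square distances of 0.063 and 0.069, and those nearest to FDFT1 were BCKDK and PPP3CC, at 0.039 and 0.059. For LSS they were NRTN and ECHDC1 (0.091 and 0.10), and for DHCR7 SOGA1 and ADGRL2 (0.13 and 0.15). For HMGCS1 they were TAF1B and CDKN2AIP (0.066 and 0.096), for SQLE RPS27 and RGS12 (0.061 and 0.075), and for IDI1 SOCS1 and B4GALT6 (0.083 and 0.090). None of the 13 other enzymes of the pathway was among these nearest genes, which says little because only 2 were kept for each enzyme. LSS and CYP51A1 were the farthest apart of all pairs of the 7, at 2.17.

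In the annotation deposited beside the values, SQLE, LSS, CYP51A1, DHCR7 and FDFT1 stood under the KEGG pathway of steroid biosynthesis, and HMGCS1 and IDI1 under that of the terpenoid backbone. Among the 16 tested genes of steroid biosynthesis, 10 were called higher, and the 2 called lower were FDFT1 and CYP51A1 (33.4% and 20.8% of all genes). Their median log2 (foldchange) was 1.65, and after median-of-ratios scaling 9 were higher and 2 lower (17.7% and 27.7% of all genes). As 5 of the 16 are among the 7 enzymes, these counts are not separate from those above. Among the 20 tested genes of the terpenoid backbone, 7 were called higher and 3 lower, beside the 33.4% and 20.8% of all genes, with a median of 0.47. After median-of-ratios scaling 3 of them were higher and 4 lower, beside 17.7% and 27.7%. These pathways were looked up after the values had been seen.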

How the data were processed

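RNA was sequenced from testis tissue of 3 cattle-yak and 3 yak, with 1 library per animal. Per the methods, reads were trimmed with Trimmomatic and mapped with HISAT2, and Cufflinks and HTSeq were both used for quantification. The deposited values are FPKM from the authors, scaled to the depth of each library but not for differences in composition between libraries. Because they stood in whole-number ratios from library to library, fragments and gene lengths were recovered for 17973 genes, and 100% of their 107838 values lay within 0.03 of a whole fragment. The step was tested on simulated data. Of the gene lengths, 53.2% were multiples of 3.

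Genes with a mean of at least 0.5 FPKM were fitted with limma 3.58.1 in R 4.3.3 (variance trend, two-sided) on log2 (FPKM + 1), which understates changes of genes with low values. Calls needed p, adjusted by Benjamini-Hochberg, under 0.05, with a log2 (foldchange) beyond 1. The study's own count test was not used. The p-values test the difference between the groups against the spread between these animals, with the variance of each gene drawn toward a trend over all genes. Counting error refers to fragments only. Figures used Python 3.11.15 and matplotlib 3.10.9.

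The enzymes and lists were chosen with earlier results of these data known. Named were all 7 enzymes, the set genes (FDPS, SCARB1, SREBF1, SREBF2, INSIG1, INSIG2, SCAP, STAR and CYP11A1), up to 4 called genes per list with the largest change, and the 2 genes most like each enzyme. TXNDC2, PIWIL1, CCNA1, SYCP3, LBR, ERG28, NPC1, NR1H3, SOAT1, SOAT2 and PLIN2 were named after their values were seen. The same holds for ACAT2, PMVK, MVD, NSDHL and HSD17B7. Alternatives were other pseudocounts, filters, scalings, limma settings and thresholds, voom on the recovered fragments, and omission of each animal. Some genes of the lists are not reported here and were left out of the list counts. No positions or sequences were used here.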

Additional observations from a re-analysis of the deposited data

How the results depend on the processing

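Of 18 alternatives, 17 gave values for the 42 named genes, whose calls were the same 657 times, against 21 calls lost, 8 gained and 28 values of opposite sign. A value of opposite sign was counted only as such. With Sertoli centring some of these also lost a call, as LSS and DHCR7 did, or became called lower, as IDI1 and SQLE did. Sertoli-centred scaling, which sets the Sertoli genes level by construction and moved the median of all genes to −1.66, was the main exception. With it 38 of all genes were called higher and 10812 lower. It left 0 of the 7 enzymes higher and 5 lower, 0 and 5 of the other synthesis enzymes, 0 and 9 of the regulation genes, and 0 and 4 of the uptake genes. The log2 (foldchange) turned negative for IDI1 (−1.20), SQLE (−1.35), LSS (−0.023), DHCR7 (−0.32), TM7SF2 (−0.27), EBP (−0.061) and SC5D (−0.13). It also did so for GGPS1 (−0.89), FNTB (−0.98), SCAP (−1.25), INSIG2 (−1.43), MBTPS1 (−0.67), MBTPS2 (−0.22), NPC2 (−0.018), STARD4 (−0.015), ABCA1 (−1.16), APOE (−0.91) and APOA1 (−0.035), and for TSPO (−0.41), CYP11A1 (−0.12), FDXR (−1.04), CYP27A1 (−0.30), CH25H (−0.72), ACLY (−0.40), ACACA (−1.06), FASN (−0.34) and FADS2 (−0.43). Median-of-ratios scaling called 2655 of all genes and 2 regulation genes higher. Without the fold-change threshold, which can only add calls, 7916 of all genes, 4 of the 7 enzymes and 8 regulation genes were higher, and 2 of the other synthesis enzymes lower. With single animals left out, the other synthesis enzymes called lower numbered 0 (without TES6) to 1, the 7 enzymes called higher 2 to 3, and SREBF2 ran from −0.12 to 0.047 (the latter without Yak8). The yak levels of LSS and DHCR7 rest on the fewest fragments, at least 91 and 36 per library. No paired analysis was possible because the groups share no animal numbers.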
